A study of Mus musculus with 9 samples.

Results

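Circadian clock genes were measured as unique molecular identifiers (UMIs), which count RNA molecules, in nuclei from the pooled cortex and hippocampus of male C57BL/6 mice of wild-type genotype. The 10 genes were taken by symbol from a list (Per1, Per2, Per3, Cry1, Cry2, Arntl, Npas2, Dbp, Nr1d1 and Nr1d2), and all 10 were found among the 31053 genes of the deposited tables. The question was whether the hour at which the tissue was taken differed among libraries or groups, since the hour is not given in the sources used here. There were 9 mice, each with 1 library, in 3 groups of 3. Young AAV-EGFP mice and aged AAV-EGFP mice had received an adeno-associated virus for the fluorescent protein EGFP, and aged AAV-B3GNT3 mice a virus for EGFP together with B3GNT3, a glycosyltransferase of mucin-type O-glycans. All 9 mice carried virus, given retro-orbitally 8 weeks before the tissue was taken, with a claudin-5 mini-promoter meant to limit expression to endothelial cells. Aged mice came from another colony than young mice, so that age and colony cannot be told apart. Hemispheres had been frozen and nuclei sorted as singlets. The study states that procedures were alternated between groups where possible, and it kept the mice on a light-dark cycle.

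The mammalian clock is a loop of transcription. Arntl (also called Bmal1) pairs with Clock or Npas2 and switches on the Per and Cry genes, Nr1d1, Nr1d2 and Dbp through E-box elements, and PER and CRY proteins then block that pair. Nr1d1 and Nr1d2 encode the REV-ERB receptors, which repress Arntl, Npas2 and Cry1 through ROR/REV-ERB elements, so that Arntl and Dbp peak at opposite hours in most tissues. Per1 is also switched on directly by glucocorticoid hormone, which itself has a daily rhythm, and Per1 and Per2 respond to neuronal activity.

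Promoter sequences of the members are shown where they hold an element of the loop, since the loop acts through these elements. RefSeq windows on GRCm38.p6, from 250 bases before to 50 bases after a start site, were found by symbol for 9 of the 10 members (11 windows) and not for Per2. An E-box (CACGTG) lay in windows of 2 members, Per1 and Cry1, against 7.15% of all 32851 windows. A D-box (TTATGTAA), the site for DBP and its relatives, was found in Per3, against 0.938% of windows. The full ROR/REV-ERB element, which is AANT directly followed by AGGTCA, was found in Arntl, against 0.219% of windows, and the core AGGTCA in 3 members, Per1, Arntl and Nr1d2, against 16.3%. Both strands were searched, and the Arntl core is part of its full element. In the 4 windows printed, capitals mark these matches, which are letters in a window and not measured binding sites.
Per1, chr11:69098699-69098998, plus strand, E-box and a core AGGTCA on the opposite strand: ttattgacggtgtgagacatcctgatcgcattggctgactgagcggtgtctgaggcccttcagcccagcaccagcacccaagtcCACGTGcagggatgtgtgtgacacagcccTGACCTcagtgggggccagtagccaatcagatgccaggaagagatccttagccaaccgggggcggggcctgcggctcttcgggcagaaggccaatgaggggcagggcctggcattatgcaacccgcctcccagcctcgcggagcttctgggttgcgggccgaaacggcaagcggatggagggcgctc
Per3, chr4:151044616-151044915, minus strand, D-boxes: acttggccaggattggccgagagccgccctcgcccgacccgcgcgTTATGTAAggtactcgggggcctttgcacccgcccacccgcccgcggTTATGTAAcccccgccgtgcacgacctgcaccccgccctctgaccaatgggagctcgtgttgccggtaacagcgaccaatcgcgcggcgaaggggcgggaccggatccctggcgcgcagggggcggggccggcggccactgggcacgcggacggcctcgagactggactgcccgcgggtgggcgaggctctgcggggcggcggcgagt
Cry1, chr10:85185005-85185304, minus strand, E-box: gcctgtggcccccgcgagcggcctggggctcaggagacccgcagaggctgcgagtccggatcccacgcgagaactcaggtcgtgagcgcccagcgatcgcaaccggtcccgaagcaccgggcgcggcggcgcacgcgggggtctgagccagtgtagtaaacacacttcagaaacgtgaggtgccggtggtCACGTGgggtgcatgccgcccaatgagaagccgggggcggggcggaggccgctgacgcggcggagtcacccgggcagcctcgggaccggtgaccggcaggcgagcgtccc
Arntl, chr7:113207261-113207560, plus strand, ROR/REV-ERB element: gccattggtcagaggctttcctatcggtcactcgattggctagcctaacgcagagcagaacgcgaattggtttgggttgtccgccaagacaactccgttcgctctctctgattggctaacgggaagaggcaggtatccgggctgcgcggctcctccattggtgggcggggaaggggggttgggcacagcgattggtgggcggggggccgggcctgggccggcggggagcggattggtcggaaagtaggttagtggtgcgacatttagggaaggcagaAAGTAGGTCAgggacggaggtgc
The Cry1 E-box lay 60 to 55 bases before the start site and the Per1 E-box 166 to 161 bases before it, whereas the Arntl element lay 28 to 37 bases into the transcript. The D-boxes of Per3 began 205 and 158 bases before its start site.

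The libraries held 47332047 to 79964605 UMIs each, and 70353 of 77823 barcodes were kept. Of the distinct barcode sequences, 0.952% were found in 2 or more libraries. Nuclei were clustered and clusters named from marker lists, and 7 classes were compared between groups: excitatory neurons (20362 nuclei), inhibitory neurons (8150), astrocytes (8429), oligodendrocytes (20339), oligodendrocyte precursors (2757), microglia (2297) and brain endothelial cells (769). Of the 6 markers listed for each class, 5 were highest in their own class for excitatory neurons and for precursors and all 6 for the other classes, and none was at 0. The inhibitory class held a striatal-like cluster, although the striatum is not part of the tissue named in the labels, and it made up 27.9 to 55.3% of that class by library. In brain endothelial cells the mouse gene B3gnt3 had 7, 3 and 1 UMIs in young AAV-EGFP, 0 in each aged AAV-EGFP and 0, 3 and 4 in aged AAV-B3GNT3 libraries, which does not check the virus, since the transgene sequence need not be counted under that gene.

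Over all kept nuclei the 10 genes gave from 5299 UMIs (Nr1d1) to 104477 UMIs (Npas2) in total. Counts were summed per library and class and are given as CPM, the UMIs of a gene scaled to the same total in every library after TMM normalization, with mean ± SD over libraries. Summed markers of other cell types, given further below, are instead UMIs scaled to the raw class total of a library, without TMM. All 10 genes passed the filter on low counts in the 5 largest classes, 7 in microglia and 6 in brain endothelial cells. Per3 lies inside the span of Camta1 on the same strand, Dbp overlaps Sphk2, Nr1d1 overlaps Thra and Arntl overlaps Gm45355 on the other strand, so that reads may have been split or dropped there. In a sum over a class, a lower level in each nucleus and fewer nuclei of a high subtype cannot be told apart.

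Astrocytes had the highest mean level of 7 of the 10 members, and brain endothelial cells of the other 3 (Per1, Cry1 and Nr1d2). These levels are a description, with no test between classes. Npas2, the forebrain partner of Arntl, stood at 407 ± 83.2 CPM in astrocytes, 311 ± 56.2 CPM in inhibitory neurons and 274 ± 27.8 CPM in excitatory neurons, and its libraries overlapped among these 3 classes. In oligodendrocytes Npas2 was at 30.7 ± 14.5 CPM, and the highest oligodendrocyte library (50.5 CPM) was below the lowest neuronal one (226.7 CPM). Within the inhibitory class the striatal-like cluster held 615 ± 68.7 CPM of Npas2 and the other nuclei 88.0 ± 14.0 CPM. Among excitatory subclasses Npas2 ranged from 63.2 ± 15.5 CPM in dentate granule neurons to 488 ± 117 CPM in deep intratelencephalic neurons.

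Per3, a Period gene of lesser weight in the core loop, was at 162 ± 24.3 CPM in astrocytes, and its lowest astrocyte library (120.9 CPM) was above every library of the other 6 classes. Cry2, a repressor that acts with the PER proteins, was at 194 ± 44.0 CPM in astrocytes, again with no overlap with the next class, excitatory neurons at 93.3 ± 11.8 CPM. Dbp, a D-box activator read as an output of the loop, was at 43.7 ± 14.4 CPM in astrocytes and 9.11 ± 2.15 CPM in excitatory neurons. Nr1d1 was at 46.8 ± 10.4 CPM in astrocytes and 11.0 ± 2.52 CPM in excitatory neurons. For both genes the astrocyte and endothelial libraries overlapped, and no astrocyte library was as low as any excitatory library.

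Per2, which carries much of the repressive arm, was at 81.8 ± 24.1 CPM in astrocytes and 79.8 ± 20.03 CPM in precursors, which overlapped, and at 15.3 ± 5.95 CPM in oligodendrocytes. Nr1d2 was highest in brain endothelial cells (173 ± 41.9 CPM) and astrocytes (161 ± 21.0 CPM), and these 2 classes lay above the libraries of all other tested classes except that endothelial libraries overlapped those of precursors and microglia. Arntl was at 124 ± 28.6 CPM in astrocytes, 108 ± 18.6 CPM in excitatory neurons and 107 ± 45.3 CPM in brain endothelial cells, which overlapped. Arntl in oligodendrocytes (37.8 ± 10.7 CPM) and precursors (37.5 ± 9.63 CPM) was below every excitatory library. Cry1 libraries overlapped between each class and the next in order, from 39.5 ± 14.9 CPM in brain endothelial cells to 14.2 ± 9.78 CPM in microglia. Per1 was at 133 ± 72.2 CPM in brain endothelial cells and 37.1 ± 13.6 CPM in precursors.

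**Figure D1:**
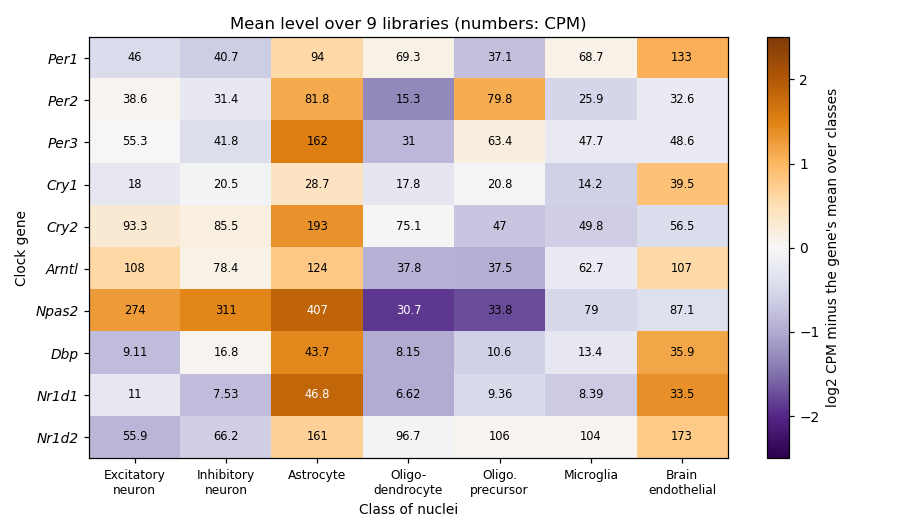
Mean level of each clock gene (rows) in the 7 classes (columns) over 9 libraries. Numbers are CPM and colours give log2 CPM minus the mean of that gene over the classes, so colours compare classes within a row only. Npas2 is at 407 CPM in astrocytes and 30.7 CPM in oligodendrocytes.

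One library stood apart. In aged AAV-EGFP replicate 1, Per1 was the lowest of the 9 libraries in 6 of the 7 classes. In oligodendrocytes Per1 was at 10.9 CPM there (40 UMIs), at 99.8 and 104 CPM in aged AAV-EGFP replicates 2 and 3, at 49.4, 58.2 and 58.4 CPM in the young AAV-EGFP libraries, and at 89.98, 83.1 and 70.4 CPM in the aged AAV-B3GNT3 libraries. The other aged AAV-EGFP libraries were the highest of all 9, so the group held both ends of the range, and their mean was 9.37 times that of replicate 1. In astrocytes Per1 was at 23.5 CPM in that library against 122 and 126 CPM in the other 2 of its group, and the remaining libraries ran from 69.8 to 137 CPM. The same 2 libraries exceeded replicate 1 by 3.58 times in microglia and 3.55 times in precursors.

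The low Per1 of this 1 library was uneven between classes, with few UMIs in some of them and no test between classes. In brain endothelial cells replicate 1 gave 3 UMIs of Per1, where the other libraries ran from 70.1 to 247 CPM. In the vascular and meningeal classes not tested for groups, pericytes gave 3 UMIs (35.2 CPM) against 325 and 235 CPM in replicates 2 and 3, and fibroblasts 7 UMIs (27.7 CPM) against 229 and 158 CPM. In excitatory neurons Per1 was at 30.9 CPM against 39.4 and 39.6 CPM, a ratio of 1.28, and in inhibitory neurons it was at 31.1 CPM between 29.3 and 38.2 CPM. Per3, Cry2, Arntl and Nr1d2 of this library were neither the lowest nor the highest of 9 in any of the 7 classes. Per2 was the lowest in 3 classes, Cry1 in 3, Nr1d1 in 3, Dbp in 2 and Npas2 in 1, while Dbp was the highest in 1.

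Targets of the glucocorticoid receptor were low in the same library. Of the 10 other genes in a list of such targets, 8 were lowest of the 9 libraries in its oligodendrocytes and 8 in its astrocytes, where 10% and 13.3% of all tested genes were lowest in this library. The counts were 6 of 9 in excitatory neurons (11% of genes), 4 of 9 in inhibitory neurons (8.71%), 4 of 7 in precursors (9.92%), 2 of 7 in microglia (9.25%) and 4 of 8 in brain endothelial cells (15.1%). Zbtb16, a transcription factor, was at 75.3 CPM in oligodendrocytes of that library against 1143 and 1316 CPM in replicates 2 and 3. Fkbp5, a chaperone that damps the receptor, was at 20.4 CPM against 200 and 373 CPM. Young AAV-EGFP replicate 1 came next, with Zbtb16 at 331 CPM and Fkbp5 at 49.9 CPM in oligodendrocytes, against 716 and 1529 CPM and 163 and 354 CPM in the other young libraries. In that young library Per1 was at 49.4 CPM, the lowest of its group. The aged AAV-B3GNT3 libraries were close together, with Fkbp5 at 352, 371 and 257 CPM. Their part in the low Per1 was not tested.

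Across the 9 libraries log2 Per1 was compared with the mean log2(CPM + 1) of the other tested targets in each class, a relation chosen after the values were seen. Aged AAV-EGFP replicate 1 had by then been seen to be low in both. The p-values below therefore describe what led to the choice and are no test of a link. Their adjustment covers the classes, which share the same mice, and not the choice of list. In astrocytes Pearson's r was 0.93 and Spearman's rho 0.90 (two-sided exact permutation test, p = 0.000593 and 0.00203, or 0.0016 and 0.0142 after adjustment over 7 classes). In brain endothelial cells r was 0.98 and rho 0.87 (exact permutation p = 9.37e-05 and 0.00451, adjusted 0.000656 and 0.0158). Per1 of aged AAV-EGFP replicate 1 rested on 3 UMIs there. A list of immediate-early genes, taken up again below, also differed in this class. It summed to 254, 1101 and 736 CPM in aged AAV-EGFP replicates 1, 2 and 3, and to 192 to 386 CPM in the other groups. The part of those genes was not tested. In oligodendrocytes r was 0.87 (exact permutation p = 0.00504, adjusted 0.00705), while rho was 0.68 (exact permutation p = 0.0503, adjusted 0.0825). Without young AAV-EGFP replicate 1 and aged AAV-EGFP replicate 1, the 2 libraries farthest out, r was 0.92 in brain endothelial cells (exact permutation p = 0.00675, adjusted 0.0236), 0.71 in astrocytes (0.0778, adjusted 0.161) and 0.26 in oligodendrocytes (0.56, adjusted 0.653). The relation in oligodendrocytes thus rested on those 2 libraries, and that in astrocytes no longer passed on the remaining 7. Centred on the group means, r was 0.94, 0.98 and 0.87 in astrocytes, endothelial cells and oligodendrocytes (exact permutation within groups, adjusted p = 0.0324, 0.0648 and 0.0648). In precursors r was 0.83 and in microglia 0.89, and without those 2 libraries 0.42 and 0.69. In excitatory neurons r was 0.59 (exact permutation p = 0.105, adjusted 0.122) and -0.05 without the same 2 libraries. In inhibitory neurons r was 0.03 (exact permutation p = 0.931, adjusted 0.931), and without its 2 farthest libraries, aged AAV-EGFP replicate 1 and aged AAV-B3GNT3 replicate 2, it was -0.91 (exact permutation p = 0.00298, adjusted 0.0208).

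**Figure D2:**
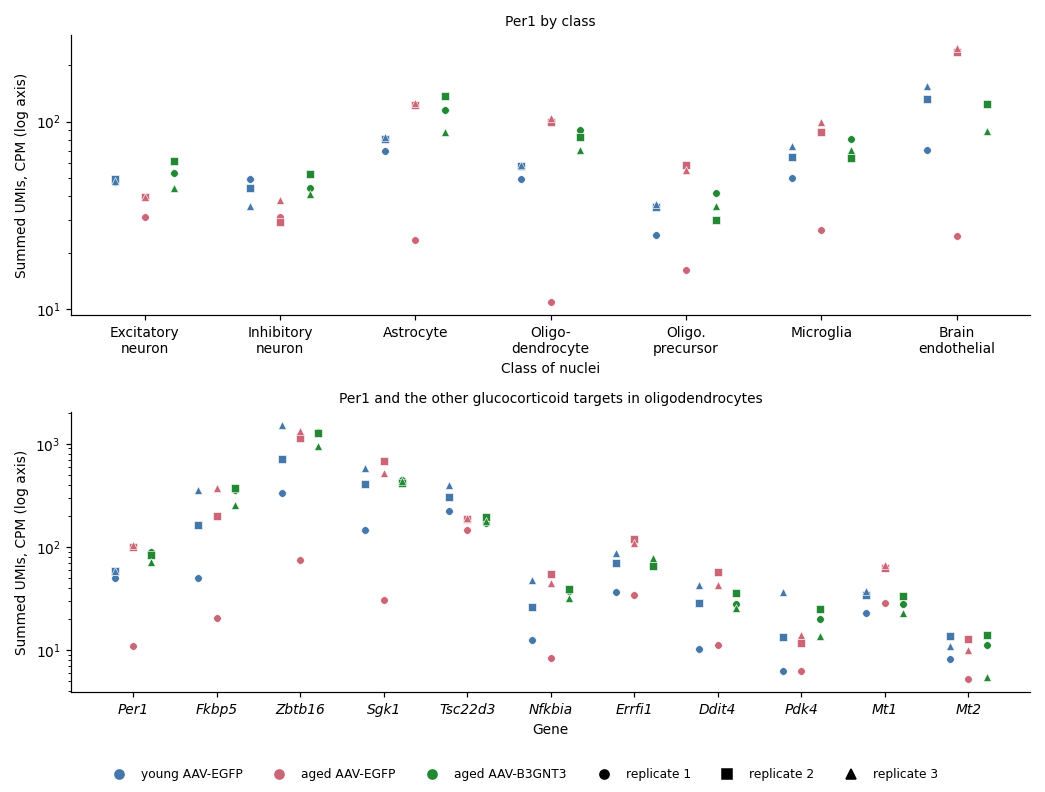
CPM on a log axis for each library (colour: group, symbol: replicate), for Per1 in the 7 classes (top) and for Per1 and the other 10 glucocorticoid targets in oligodendrocytes (bottom). Aged AAV-EGFP replicate 1 lies at 10.9 CPM of Per1 in oligodendrocytes, and Zbtb16 there is at 75.3 CPM.

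Per1 passed no test between groups with edgeR when all 9 libraries were used, and DESeq2 called it in excitatory neurons with age (log2 change -0.42, adjusted p = 0.0339) and for treatment (0.53, adjusted p = 0.00977). Its residual spread between libraries, relative to genes of like abundance, was at percentile 99.9 of all tested genes in oligodendrocytes, 99.8 in astrocytes and 73.7 in excitatory neurons. The median ratio of the members to the trend was 1.90 in oligodendrocytes (0.973 over all genes tested), 1.53 in excitatory neurons (0.983), 1.72 in inhibitory neurons (0.978) and 1.18 in astrocytes (0.955). In precursors it was 0.702 (0.951), in microglia 0.856 (0.997) and in brain endothelial cells 1.65 (0.969).

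With age under the control virus (aged AAV-EGFP against young AAV-EGFP), Arntl and Per2 were lower in excitatory neurons and Per3 was higher. Cry2, Dbp and Per3 were higher in astrocytes, Cry2 and Per3 were higher and Npas2 and Arntl lower in oligodendrocytes, and Per3 was higher in inhibitory neurons. In excitatory neurons 3 of 10 members passed the threshold of an adjusted p under 0.05, where 14.2% of all 16916 genes did (7.5% higher and 6.66% lower). The counts were 1 of 10 in inhibitory neurons (3.79% of genes, 2.24% higher and 1.55% lower), 3 of 10 in astrocytes (11.6%, 4.57% and 7.03%) and 4 of 10 in oligodendrocytes (22.1%, 11.3% and 10.8%). Over all classes this made 11 calls, 7 higher and 4 lower. For all 11 the libraries of the groups did not overlap, as for 38.8% of all genes in oligodendrocytes, 35.9% in excitatory neurons, 29.9% in astrocytes and 26.8% in inhibitory neurons. The median log2 fold change of the 10 members was -0.12 in excitatory neurons and -0.10 in oligodendrocytes (0.02 over all genes in each), 0.08 in inhibitory neurons (0.01) and 0.35 in astrocytes (-0.003).

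Arntl, the activator of the loop, was at 136, 126 and 127 CPM in excitatory neurons of the young libraries and at 106, 96.1 and 81.3 CPM in those of the aged AAV-EGFP libraries. The groups did not overlap, and the log2 fold change was -0.45 (SE 0.12, edgeR adjusted p = 0.0265). In oligodendrocytes Arntl was at 50.7, 41.6 and 41.9 CPM in young and 34.0, 27.1 and 19.4 CPM in aged AAV-EGFP libraries, a log2 change of -0.75 (SE 0.22, adjusted p = 0.0253). Each of these calls was lost under 5 of 20 other settings, in excitatory neurons by leaving out 1 library and in oligodendrocytes also without the upper limit on genes per nucleus (-0.71, adjusted p = 0.0717). Arntl had a negative log2 fold change in all 7 classes, which share the same mice. It is the gene whose REV-ERB element is printed above.

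Per2 was at 45.0, 43.9 and 48.6 CPM in young and 21.7, 24.5 and 30.1 CPM in aged AAV-EGFP excitatory neurons, with no overlap (log2 change -0.85, SE 0.16, adjusted p = 0.00939). Immediate-early genes, which report neuronal activity, had 3 of 12 members lower in these nuclei (Egr2, Egr3 and Nr4a3) and none higher, where 6.66% of all genes were lower. The part of those 3 genes in the lower Per2 was not tested. Summed oligodendrocyte markers in excitatory nuclei ran from 188 to 228 CPM in young and from 110 to 139 CPM in aged AAV-EGFP libraries, and microglial markers from 26.7 to 38.0 and from 39.9 to 40.9 CPM, and their part was not tested.

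Per3, whose promoter holds the D-boxes shown, had a positive log2 fold change in all 7 classes and passed in 4. In oligodendrocytes it was at 23.8, 20.9 and 19.5 CPM in young and 28.5, 33.9 and 36.4 CPM in aged AAV-EGFP libraries (log2 change 0.62, SE 0.16, adjusted p = 0.0155). In excitatory neurons it was at 42.0, 43.3 and 47.2 CPM against 49.2, 66.6 and 71.8 CPM (0.50, SE 0.13, adjusted p = 0.0262). In astrocytes the log2 change was 0.46 (SE 0.13, adjusted p = 0.033) and in inhibitory neurons 0.73 (SE 0.17, adjusted p = 0.0373), with no overlap of the groups in either class, and these 2 calls were lost under 7 and 8 of 20 other settings. Summed astrocyte markers in inhibitory neurons ran from 103 to 172.5 CPM in young and from 59.8 to 79.3 CPM in aged AAV-EGFP libraries, and oligodendrocyte markers from 156 to 224 and from 123 to 144 CPM, and their part was not tested. In the striatal-like cluster of the inhibitory class, Per3 was at 43.0, 45.1 and 45.4 CPM in young and 58.8, 86.1 and 86.8 CPM in aged AAV-EGFP libraries. The change in this cluster was not tested against that in the other inhibitory nuclei. Without that cluster the log2 change of Per3 in the inhibitory class was 0.31 (adjusted p = 0.192). Among fibroblasts Per3 was at 84.2, 87.2 and 87.7 CPM in young and 250, 132 and 173 CPM in aged AAV-EGFP libraries, without a test.

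Dbp in astrocytes was at 25.2, 26.4 and 26.0 CPM in young and 53.2, 40.3 and 50.3 CPM in aged AAV-EGFP libraries (log2 change 0.89, SE 0.15, adjusted p = 0.00275). Cry2 in astrocytes was at 169, 136 and 125 CPM in young and 208, 248 and 251 CPM in aged AAV-EGFP libraries (0.72, SE 0.14, adjusted p = 0.00633). Neither pair of groups overlapped. Summed oligodendrocyte markers in astrocytes were lower with age, from 427 to 572 CPM in young and from 242 to 369 CPM in aged AAV-EGFP libraries, as were precursor markers (123 to 181 and 79.1 to 111 CPM). Pericyte markers were higher, from 144 to 180 CPM in young and from 211 to 239 CPM in aged AAV-EGFP libraries, as were microglial markers (44.9 to 52.7 and 53.3 to 73.2 CPM). The pericyte sum was at 4.58 to 7.36 CPM in excitatory neurons, so in astrocytes, here and below, it need not measure RNA of other nuclei. The part of these markers was not tested. In oligodendrocytes Cry2 was at 50.3, 44.2 and 56.6 CPM against 60.3, 81.6 and 109 CPM (0.74, SE 0.19, adjusted p = 0.0144), with replicate 1 nearest to the young libraries. The change of Cry2 differed between excitatory neurons and astrocytes, by -0.64 on the log2 scale within mice (SE 0.14, limma adjusted p = 0.0449), where 3.36% of 12304 genes passed this test.

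Npas2 in oligodendrocytes showed the largest change of a member among the 11 calls, at 50.5, 35.4 and 41.9 CPM in young and 15.2, 17.4 and 10.6 CPM in aged AAV-EGFP libraries (log2 change -1.58, SE 0.26, adjusted p = 0.00189). The change differed from that in excitatory neurons by 1.32 (SE 0.27, limma adjusted p = 0.022), where 9.37% of 12964 genes passed. Neurons and astrocytes held more Npas2 than oligodendrocytes. Summed excitatory markers there (6 genes, none at 0) ran from 440 to 511 CPM in young and from 340 to 498 CPM in aged AAV-EGFP libraries, and astrocyte markers from 305 to 652 and from 260 to 411 CPM. Inhibitory-neuron markers ran from 2150 to 2476 CPM in young and from 2203 to 2516 CPM in aged AAV-EGFP libraries, and precursor markers from 264 to 361 and from 380 to 486 CPM. The inhibitory-neuron sum was at 59.7 to 164 CPM in excitatory neurons, so here and below it need not measure RNA of other nuclei. The part of these markers in the lower Npas2 was not tested. Without an upper limit on genes per nucleus Npas2 no longer passed (-0.95, adjusted p = 0.11). After 5% of the class total was subtracted as background, in the proportions of the whole library, it passed with a larger change (-3.20, adjusted p = 0.00458). Over all kept nuclei Npas2 was at 195.7 to 276.9 CPM, so the subtraction takes a large part of the low oligodendrocyte values. That enlarges a log ratio by arithmetic and does not check the call.

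No member passed in precursors, microglia or brain endothelial cells with edgeR. There, 2, 1 and 0 members had an unadjusted p under 0.05, DESeq2 called 0 in each, and 0.295%, 0% and 0.0212% of all genes passed. The difference between the excitatory and inhibitory responses to age passed for 0 members by limma (0 at an unadjusted p under 0.05, and 0% of genes).

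Of 21 other clock genes, 20 were tested in excitatory neurons and 3 fell with age (Noct, a rhythmic phosphatase of NADP(H), Bhlhe40, a repressor at E-boxes, and Csnk1e, a kinase of PER), where 6.66% of all genes fell and 7.5% rose. In inhibitory neurons 2 of 20 fell (Csnk1e and Rorb; 1.55% of genes). In astrocytes 2 of 19 rose (Bhlhe40 and Bhlhe41; 4.57% of genes) and 2 fell (Noct and Btrc; 7.03%). In oligodendrocytes 1 of 19 rose (Fbxl21; 11.3% of genes) and 4 fell (Noct, Arntl2, Rora and Rorb; 10.8%). With both directions counted, the shares in excitatory neurons and oligodendrocytes lay near those of all genes, 14.2% and 22.1%. Rora and Rorb encode the activators at the element that REV-ERB proteins repress. Rora in oligodendrocytes was at 460, 347 and 406 CPM in young and 230, 212 and 178 CPM in aged AAV-EGFP libraries (log2 change -0.97, SE 0.20, adjusted p = 0.00533). The median log2 change of the tested other clock genes was -0.02 in excitatory neurons and -0.15 in oligodendrocytes. Cirbp, a cold-inducible RNA-binding protein with a daily rhythm, was higher with age in all 4 of these classes, for example by 1.17 in oligodendrocytes (SE 0.21, adjusted p = 0.00281), whereas Rbm3 passed in none. Of the immediate-early genes, 1 of 12 fell with age in inhibitory neurons (Nr4a3; 1.55% of all genes fell), 3 of 10 in astrocytes (Arc, Egr1 and Nr4a1; 7.03%) and 3 of 11 in oligodendrocytes (Egr1, Npas4 and Nr4a3; 10.8%), and none rose. Of the glucocorticoid targets with Per1 counted among them, Sgk1 fell in excitatory neurons (1 of 10) and in astrocytes (of 11, where Mt1 rose), and Tsc22d3 fell in oligodendrocytes (1 of 11).

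**Figure D3:**
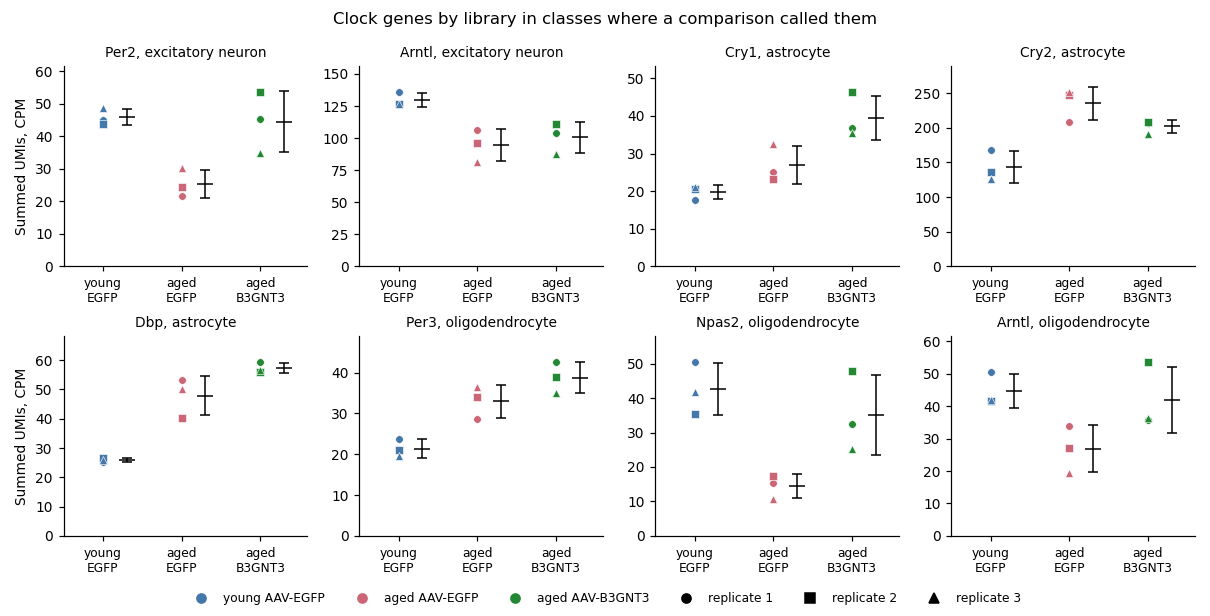
CPM by library (symbols) for 8 gene and class pairs that passed in at least 1 comparison, with mean ± SD over 3 libraries beside them; every axis starts at 0. Npas2 in oligodendrocytes lies between 10.6 and 17.4 CPM in aged AAV-EGFP libraries and between 35.4 and 50.5 CPM in young libraries.

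Leaving out aged AAV-EGFP replicate 1, the library with low Per1, raised the calls with age from 11 to 19, and all 11 remained among them. The share of all genes called rose too, to 28.5% in oligodendrocytes (5 members called), 21.4% in excitatory neurons (3), 17.5% in astrocytes (5), 10.5% in precursors (4), 9.11% in inhibitory neurons (1) and 1.48% in microglia (1). In brain endothelial cells the share rose to 4.83%, with 0 of 8 members called. The 8 added were Npas2 (log2 change -2.15, adjusted p = 0.00393), Arntl (-0.88, adjusted p = 0.0183) and Per3 in precursors, Arntl in microglia (-1.21, adjusted p = 0.0493), Nr1d1 in astrocytes, and Per1 in astrocytes, oligodendrocytes and precursors. The library was singled out for its low Per1, and dropping the lowest aged value fixes the direction of that gene, so these 3 Per1 calls are no test of a change with age. Replicate 1 was also the aged AAV-EGFP library nearest to the young ones for Arntl and Cry2 in oligodendrocytes and Per3 in excitatory neurons. Leaving it out enlarges such changes. For Per2 in excitatory neurons and Dbp in astrocytes it was instead the aged AAV-EGFP library farthest from the young ones. Without it their log2 changes went from -0.85 to -0.75 and from 0.89 to 0.81. The other added calls also follow a choice of library made on these data, and are no independent support.

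In aged mice the virus for B3GNT3 (aged AAV-B3GNT3 against aged AAV-EGFP) went with higher values of 4 members in 2 classes and with no lower one that passed. This comparison shares the aged AAV-EGFP libraries with the one before. In excitatory neurons 2 of 10 members passed (2.47% of genes, 0.899% higher and 1.57% lower) and in oligodendrocytes 2 of 10 (10.4%, 4.18% and 6.25%). The median log2 fold change of the 10 members was 0.39 and 0.41 in these classes (0.01 over all genes in each).

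Per2 in excitatory neurons was at 45.2, 53.4 and 34.7 CPM in aged AAV-B3GNT3 libraries, above each aged AAV-EGFP library (log2 change 0.80, SE 0.16, adjusted p = 0.0357), a call lost under 5 of 20 other settings, most of which left out 1 library. Summed oligodendrocyte markers in these nuclei were also higher under AAV-B3GNT3, from 187 to 225 CPM against 110 to 139 CPM. Immediate-early genes summed there to 292, 296 and 317 CPM under AAV-B3GNT3 and to 253, 209 and 281 CPM in aged AAV-EGFP libraries. The glucocorticoid targets other than Per1 summed to 609, 658 and 556 CPM against 364, 533 and 502 CPM. The part of these markers and lists was not tested. Nr1d2 was at 64.4, 64.8 and 59.9 CPM against 48.9, 43.5 and 48.2 CPM (0.43, SE 0.10, adjusted p = 0.0482), a call lost under 9 of 20 other settings, among them a fit of only these 2 groups (adjusted p = 0.0653) and the background subtraction (0.0548). The groups did not overlap for either gene, as for 24.9% of genes in these neurons and 30.8% in oligodendrocytes. In oligodendrocytes Npas2 was at 32.6, 47.9 and 25.1 CPM under AAV-B3GNT3 (1.29, SE 0.26, adjusted p = 0.0108), and without an upper limit on genes the log2 change was 0.67 (adjusted p = 0.322), while after background subtraction it was 2.83 (adjusted p = 0.0155). The subtraction takes a large part of the low aged AAV-EGFP values, so this larger change does not check the call. Cry1, the Cryptochrome that carries the E-box shown, was at 30.0, 24.7 and 20.3 CPM in oligodendrocytes against 15.8, 8.96 and 15.1 CPM (0.90, SE 0.22, adjusted p = 0.0222). Summed inhibitory-neuron markers in oligodendrocytes were lower under AAV-B3GNT3, from 1675 to 2074 CPM against 2203 to 2516 CPM, as were precursor markers, from 288 to 346 CPM against 380 to 486 CPM. Astrocyte markers ran from 350.5 to 536 CPM against 260 to 411 CPM, and excitatory markers from 432 to 465 CPM against 340 to 498 CPM. The part of these markers was not tested.

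In inhibitory neurons, astrocytes, precursors, microglia and brain endothelial cells, the class in which the virus is meant to act, no member passed for treatment with edgeR. The numbers of members with an unadjusted p under 0.05 were 4, 2, 2, 0 and 1, DESeq2 called 1 (Per2), 0, 0, 0 and 0, and 0.576%, 4.49%, 0.076%, 0% and 0.254% of all genes passed. Nr1d2 and Per2 had a positive log2 fold change in every class tested (7 and 6), and Cry1 and Dbp in all 5. Among the other clock genes, Noct and Bhlhe40 rose in excitatory neurons (2 of 20, where 0.899% of all genes rose), and Noct and Rora in oligodendrocytes (2 of 19, where 4.18% rose). The difference in treatment effect between excitatory neurons and inhibitory neurons, astrocytes or oligodendrocytes passed for no member with limma (0 of 10 in each, and 0, 3 and 2 with an unadjusted p under 0.05; 0%, 0% and 2.24% of genes passed).

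Against young AAV-EGFP mice, aged AAV-B3GNT3 mice were higher for Dbp and Cry1 in astrocytes, Per3 and Cry2 in oligodendrocytes and Cry2 in excitatory neurons. This comparison shares libraries with both others. In astrocytes 2 of 10 members passed (2.59% of genes, 1.53% higher and 1.06% lower), in oligodendrocytes 2 of 10 (1.72%, 1.17% and 0.545%) and in excitatory neurons 1 of 10 (3.65%, 2.44% and 1.21%). The groups did not overlap for any of the 5, as for 25.4%, 24.3% and 27.4% of genes in these classes. Dbp in astrocytes was at 59.4, 56.0 and 56.6 CPM under AAV-B3GNT3 (log2 change 1.147, SE 0.15, adjusted p = 0.00169), more than any young or aged AAV-EGFP library. Pericyte markers in astrocytes ran from 212 to 249.1 CPM under AAV-B3GNT3 and from 144 to 180 CPM in young libraries. Oligodendrocyte markers ran from 387 to 424 CPM and from 427 to 571.5 CPM, and excitatory markers from 210.1 to 247.5 CPM and from 263 to 289.9 CPM, both lower under AAV-B3GNT3. The part of these markers was not tested. Cry1 in astrocytes was at 36.7, 46.2 and 35.4 CPM against 17.6, 20.7 and 21.2 CPM in young libraries (1.01, SE 0.18, adjusted p = 0.0108).

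In oligodendrocytes Per3 was at 42.6, 38.9 and 34.9 CPM under AAV-B3GNT3, above every young library (0.85, SE 0.16, adjusted p = 0.018). Cry2 was at 99.98, 87.9 and 85.9 CPM there (0.86, SE 0.19, adjusted p = 0.0398). In excitatory neurons Cry2 was at 112, 107 and 104 CPM against 85.3, 84.9 and 80.8 CPM (0.36, SE 0.09, adjusted p = 0.042). Each of these 2 Cry2 calls was lost under 9 of 20 other settings. Summed inhibitory-neuron markers in oligodendrocytes ran from 1675 to 2074 CPM under AAV-B3GNT3 and from 2150 to 2476 CPM in young libraries, and microglial markers from 46.1 to 52.8 and from 37.4 to 40.2 CPM, and their part was not tested. No member passed in inhibitory neurons (0.721% of genes), precursors (0.124%), microglia (0%) or brain endothelial cells (0%) with edgeR, where 4, 4, 1 and 1 members had an unadjusted p under 0.05 and DESeq2 called 2 (Per3 and Arntl), 0, 0 and 0. The change between these groups differed between excitatory neurons and inhibitory neurons, astrocytes or oligodendrocytes for 0 of 10 members in each by limma (1, 2 and 2 with an unadjusted p under 0.05), where 0%, 0.0163% and 0.0849% of genes passed. Ciart, a repressor of the Arntl pair, was the 1 other clock gene of 19 that rose in astrocytes (1.72, SE 0.29, adjusted p = 0.00794), and Tef, a relative of Dbp, the 1 that rose in oligodendrocytes (0.71, SE 0.16, adjusted p = 0.0411). Without aged AAV-EGFP replicate 1, which belongs to neither group, 12 calls were made in place of 5 (4 in excitatory neurons, 4 in astrocytes, 3 in oligodendrocytes and 1 in inhibitory neurons), 2 of them of Per1. The share of all genes called in these classes was then 5.38%, 5.39%, 3.8% and 0.904%, also above the values with all 9 libraries. Leaving out a library for its outlying Per1 lowers the spread that Per1 is tested against. The 2 Per1 calls are therefore no test of a difference between these groups.

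**Figure D4:**
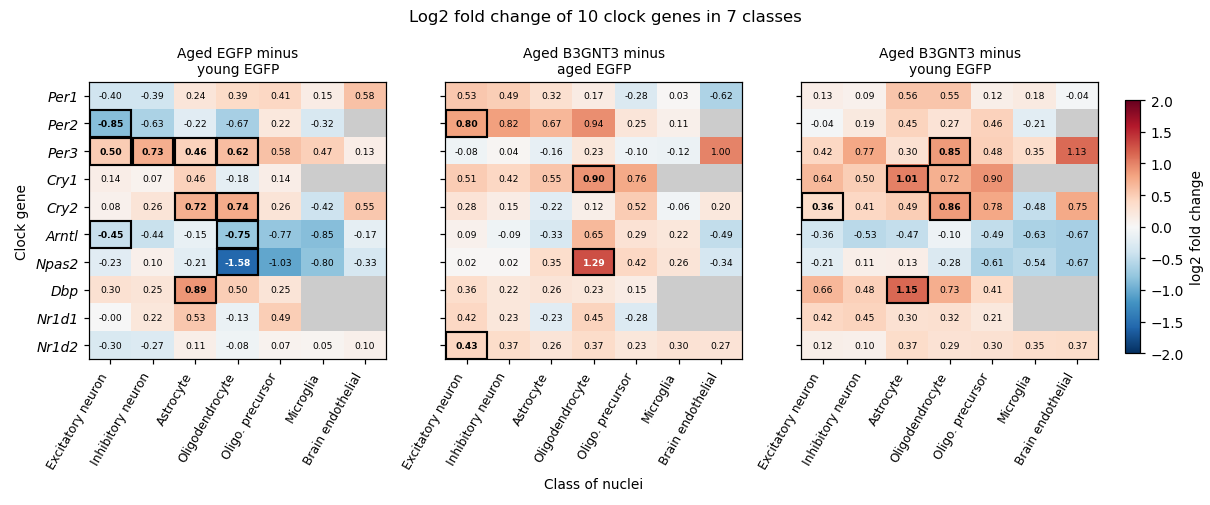
Log2 fold change of each clock gene (rows) in each class (columns) for the 3 comparisons; boxes mark an adjusted p under 0.05 and grey cells genes under the count filter. Arntl is negative in all 7 classes in the left and right panels, and Per3 is positive in all 7 in both, with shared young libraries.

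The clock contrast puts both arms of the loop into 1 value per library: the mean log2 CPM of Per1, Per2, Per3, Dbp, Nr1d1 and Nr1d2 minus that of Arntl, Npas2 and Cry1. In excitatory neurons it was -1.71, -1.61 and -1.54 in young libraries, -1.66, -1.65 and -1.36 in the aged control libraries, and -1.35, -1.36 and -1.38 under AAV-B3GNT3. The young and AAV-B3GNT3 libraries were thus apart, and aged AAV-EGFP replicate 3 lay with the latter. In inhibitory neurons it was -1.66 ± 0.03 in young libraries, -1.59 ± 0.07 in the aged control libraries and -1.34 ± 0.01 under AAV-B3GNT3 (SD, n = 3 each), and the AAV-B3GNT3 libraries lay above all others. Over all kept nuclei the groups stood at -1.33 ± 0.06, -1.24 ± 0.17 and -0.998 ± 0.057. The mix of classes differed between libraries. Excitatory neurons were 1469 of 5906 kept nuclei in aged AAV-B3GNT3 replicate 1 and 3413 of 9275 in aged AAV-EGFP replicate 2. A change within nuclei and a change of this mix cannot be told apart there. The inhibitory value holds Npas2, which differed between the striatal-like cluster (27.9 to 55.3% of that class) and the rest. No test was made on this score, which rested on 4 and 2 genes in microglia and 3 and 2 in brain endothelial cells.

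In oligodendrocytes the order was different. The contrast was -0.76, -0.52 and -0.50 in young libraries and 0.02, -0.40 and -0.21 in aged AAV-B3GNT3 libraries, whereas aged AAV-EGFP replicates 1, 2 and 3 gave -0.49, 0.51 and 0.75. In precursors the same 3 libraries gave -0.09, 1.32 and 1.36, against -0.31 to 0.07 in young and 0.10 to 0.59 in AAV-B3GNT3 libraries. In both classes replicate 1 of that group lay apart from its other 2 libraries, which was not so in excitatory neurons. The contrast holds Per1, by which this library was singled out, so the separation in part restates its low Per1. Without Per1 the 3 libraries gave -0.42, 0.09 and 0.34 in oligodendrocytes, where replicate 1 then lay above all 3 young libraries, and 0.05, 1.202 and 1.32 in precursors. In astrocytes they were -0.55, -0.24 and -0.24, and without Per1 -0.27, -0.33 and -0.30. Npas2 is among the 3 genes subtracted. With age its log2 change in oligodendrocytes was -1.58, which by arithmetic raises the contrast of the aged AAV-EGFP libraries there. Its residual spread between libraries was at percentile 92.0 of all tested genes in oligodendrocytes and 98.7 in precursors. The contrast was not computed without Npas2.

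**Figure D5:**
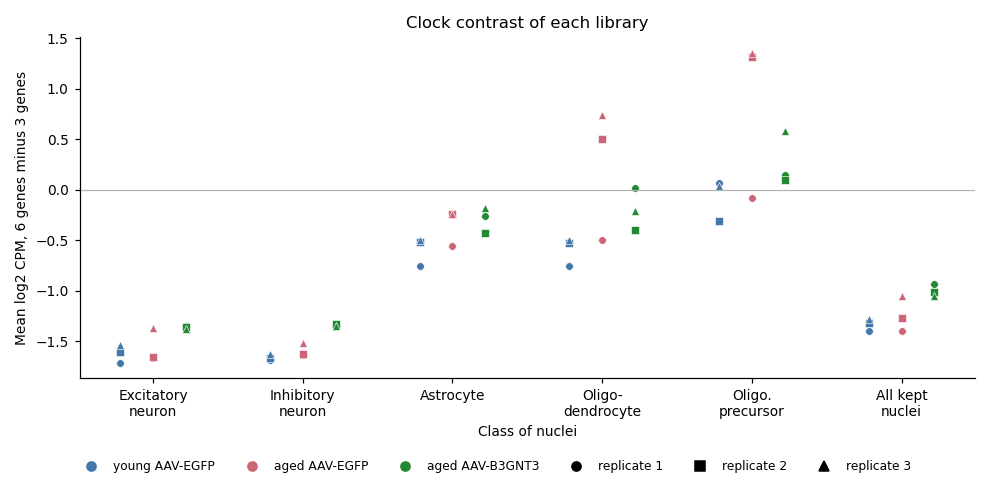
Clock contrast (mean log2 CPM of 6 genes minus that of 3 genes) of each library in excitatory and inhibitory neurons, astrocytes, oligodendrocytes, precursors and all kept nuclei. Colour gives the group and the symbol the replicate. In oligodendrocytes and precursors aged AAV-EGFP replicate 1 lies with the young libraries, at -0.49 and -0.09, and replicates 2 and 3 lie above all others.

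Arntl and Dbp, opposite in phase in most tissues, were compared across the 9 libraries in the 5 classes where both were tested. Pearson's r was negative in all 5, at -0.57 in excitatory neurons, -0.53 in astrocytes, -0.46 in precursors, -0.30 in inhibitory neurons and -0.20 in oligodendrocytes, and Spearman's rho ran from -0.62 in astrocytes to -0.28 in inhibitory neurons. None passed (two-sided exact permutation p from 0.115 to 0.618, adjusted from 0.348 to 0.618; for rho, from 0.0857 to 0.463, adjusted from 0.332 to 0.463). Without the 2 libraries farthest from the median of Dbp, r was -0.82 in excitatory neurons (exact permutation p = 0.0258, adjusted 0.129) and -0.69 in precursors (0.0946, adjusted 0.237), and from -0.37 to -0.10 in the other 3 classes. Centred on group means, r was -0.22 in excitatory neurons, -0.57 in precursors, -0.03 in astrocytes, -0.0048 in oligodendrocytes, and 0.56 in inhibitory neurons, with adjusted p of 0.613 or more by exact permutation within groups.

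The genes most like Dbp over the 9 libraries, by Pearson's r of log2 CPM centred on group means and averaged over excitatory neurons, inhibitory neurons, astrocytes and oligodendrocytes, were Chst10 (0.68), Arfrp1 (0.64), Erg28 (0.63), Dag1 (0.62) and Myo10 (0.62) among 9510 genes. The most opposed were Pcca (-0.64), Glrx3 (-0.63), 4932438A13Rik (-0.62), Xkr4 (-0.61) and Anapc1 (-0.60). None of these 10 is a clock gene of either list. Among the members, Cry1 (0.43, rank 187), Nr1d1 (0.37, rank 385), Nr1d2 (0.36, rank 421) and Per3 (0.35, rank 502) stood highest, and Arntl (0.08, rank 3635) lowest. These averages hid opposite signs between classes. Per3 was at 0.98 in inhibitory neurons and -0.44 in astrocytes, and Nr1d2 at 0.75 in astrocytes and -0.16 in oligodendrocytes. Nr1d1 was at -0.17 in astrocytes and Cry1 at -0.06 in oligodendrocytes.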

How the data were processed

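Nuclei from 9 mice were profiled by 10x 3′ v3.1 chemistry, with 1 mouse in each library. Raw UMI counts for each gene and barcode were deposited, which the authors made by aligning to mm10 (GRCm38). The submitters' processing notes name Cell Ranger 4.0.0 and the matrix headers 7.2.0. Whether intronic reads were counted is not given in the sources used here. The study's removal of free RNA and doublets is not in these files. Barcodes with 200 to 5000 genes and mitochondrial UMIs of 10% or less were retained, and simulated doublets set the removal of 5.07 to 8.21% of barcodes per library. Nuclei were clustered (2000 variable genes, 15 principal components, 20 neighbours, Leiden) with no integration, and clusters named by at least 3 markers. After the clusters were seen, smooth-muscle markers were not counted against pericytes, and a cluster with inhibitory and subcortical glutamatergic markers was left unnamed.

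Counts were summed per library and class, filtered (filterByExpr, minimum count 10), TMM-scaled and tested with edgeR 4.0.16 (glmQLFit, all 9 libraries, two-sided, Benjamini-Hochberg over all genes of a class, threshold 0.05). SE values derive from the F statistic. Log2 CPM used a prior count of 2, and class differences used limma 3.58.1. DESeq2 1.42.0 and the other settings are described with their effect. P-values measure the spread between single libraries of separate mice. The fits were run on simulated data with the same dispersion for all genes and classes. In the real data the average biological coefficient of variation ran from 0.143 in inhibitory neurons to 0.266 in brain endothelial cells. The simulation therefore does not check the fits in classes with more spread. All 10 members were named in every class, and the 5 genes highest and lowest in likeness to Dbp. The members and lists were chosen with earlier results of these data known. Promoters came from RefSeq (GRCm38.p6) and overlaps from GENCODE vM21.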

Additional observations from a re-analysis of the deposited data

Results flagged for a closer look

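The effect of age differed between classes for 2 members, by a test of the difference within mice (limma, adjusted over all genes tested in both classes). The log2 change of Cry2 in excitatory neurons minus that in astrocytes was -0.64 (SE 0.14, adjusted p = 0.0449), with changes of 0.08 and 0.72 in the separate fits, and it was 1 of 10 members where 3.36% of all genes passed. For Npas2 the change in excitatory neurons minus that in oligodendrocytes was 1.32 (SE 0.27, adjusted p = 0.022), with changes of -0.23 and -1.58, and 1 of 10 members is close to the 9.37% of all genes that passed. With a prior count of 0.5 both still passed, at -0.64 (adjusted p = 0.047) and 1.34 (adjusted p = 0.0246). The difference of Cry2 between excitatory neurons and oligodendrocytes did not pass (-0.61, adjusted p = 0.0577).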

How the results depend on the processing

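Of the 20 calls of a member in a class, 5 passed under all 20 other settings tried: Per2 in excitatory neurons and Cry2 and Dbp in astrocytes with age, and Dbp and Cry1 in astrocytes between aged AAV-B3GNT3 and young mice. The other 15 were lost under 1 or more, and none changed sign. The setting without the striatal-like cluster changes the counts of inhibitory neurons only, so it is no check of calls in other classes. Calls with age, for treatment and between aged AAV-B3GNT3 and young mice numbered 11, 4 and 5. The last 2 numbers became 8 and 10 with DESeq2, 8 and 11 with raw class totals, 9 and 14 with no filter on low counts, and 2 and 13 with only the 2 groups compared in the fit. With the replicate number as a block, the counts were 10, 4 and 4, and Per3 in inhibitory neurons with age, Nr1d2 in excitatory neurons for treatment and Cry2 in excitatory neurons between aged AAV-B3GNT3 and young mice were lost (adjusted p = 0.065, 0.0693 and 0.0812), while Arntl in oligodendrocytes was added for treatment (0.0461). The numbers were not taken as pairs: same-numbered libraries deviated from their group means with correlations from -0.51 to 0.30 over the 7 classes, and at most 4 of 9 in a class (brain endothelial cells) were over 0.1. Leaving out 1 library gave 4 to 19, 1 to 7 and 2 to 12 calls. With age, the counts were 7, 5 and 6 without young AAV-EGFP replicates 1, 2 and 3, and 19, 6 and 4 without aged AAV-EGFP replicates 1, 2 and 3. For treatment they were 2 without young AAV-EGFP replicate 3, 1 without aged AAV-EGFP replicate 2, and 1, 1 and 7 without aged AAV-B3GNT3 replicates 1, 2 and 3. For the last comparison they were 2 without young AAV-EGFP replicate 2 or 3, 12, 3 and 8 without aged AAV-EGFP replicates 1, 2 and 3, and 2, 3 and 3 without aged AAV-B3GNT3 replicates 1, 2 and 3. RLE scaling, keeping doublets, lifting the upper limit on genes, clustering at a resolution of 1.0, a background subtraction of 5% and inhibitory neurons without the striatal-like cluster (added after the data were seen) kept each count within 1.5 times. The correlation of Arntl and Dbp in inhibitory neurons reversed from -0.30 to 0.56 when centred on group means. In astrocytes the clock contrast of aged AAV-EGFP replicates 2 and 3 minus that of replicate 1 went from 0.31 to -0.0496 without Per1, a setting added after the data were seen. The causes were not tested. In brain endothelial cells 143112 to 329341 UMIs per library left 4 members under the count filter and untested.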
